A study of Homo sapiens with 2 samples.

Results

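Heavily methylated CpG island promoters are the gene promoters that lie in a CpG island, a stretch of DNA dense in CpG dinucleotides, and carry methyl groups on most of their CpGs. They were described here in SH-SY5Y, an established human neuroblastoma line with features of immature sympathetic neurons, by methyl-capture bisulfite sequencing. The control was exposed to DMSO, the solvent, and the other culture to Mdivi-1, a compound applied to inhibit the division of mitochondria; dose and time are not given in the sources used here. Each group held 1 library, 2 in all, and differences between them therefore have no replicate check. Pairs of percentages below give the DMSO control first and Mdivi-1 second. Members were selected on the measured levels themselves: autosomal island CpGs assigned to a promoter and covered by 10 or more reads in each library were grouped by gene, groups of at least 5 CpGs were kept, and the mean of the 2 libraries' deposited fractions had to reach 80%. Of 12498 island promoters, 698 (5.58%) met this rule. A further 1686 lay between 20 and 80% (intermediate) and 10114 below 20% (unmethylated).

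CpG islands at promoters are normally kept free of methylation, whether or not the gene is transcribed, and most housekeeping genes start in such an island. The known exceptions include germline genes silenced in body tissues, the silenced allele of imprinted genes, the inactive X chromosome and islands that gain methylation in tumours and cultured lines. Dense methylation over a start site usually goes with a silent promoter, whereas methylation of an island inside a gene does not. Bisulfite reads do not separate methylcytosine from hydroxymethylcytosine. No expression values were used here.

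The examples below show the kinds of promoter that the rule brought together. Each line gives the 250 bases before the gene's start, 5′ to 3′, from RefSeq, build GRCh38.p14. Capitals mark CpGs that were at 50% or more in both libraries. The deposited table is in hg19, and each sequence was paired with it by the spacing of its CpGs alone, without converting coordinates.
HENMT1, chr1:108661475-108661724, minus strand: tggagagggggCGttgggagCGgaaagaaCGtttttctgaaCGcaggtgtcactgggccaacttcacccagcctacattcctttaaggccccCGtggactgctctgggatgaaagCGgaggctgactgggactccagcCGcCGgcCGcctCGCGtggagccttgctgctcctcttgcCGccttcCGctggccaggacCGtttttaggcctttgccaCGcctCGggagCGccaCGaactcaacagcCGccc
ZNF432, chr19:52048839-52049088, minus strand: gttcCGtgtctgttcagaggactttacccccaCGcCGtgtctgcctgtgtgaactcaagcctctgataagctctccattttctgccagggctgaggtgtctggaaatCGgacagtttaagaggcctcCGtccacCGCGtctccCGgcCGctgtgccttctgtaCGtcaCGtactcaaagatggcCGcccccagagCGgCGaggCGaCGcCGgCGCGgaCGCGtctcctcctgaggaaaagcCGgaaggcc
CFAP44, chr3:113441494-113441743, minus strand: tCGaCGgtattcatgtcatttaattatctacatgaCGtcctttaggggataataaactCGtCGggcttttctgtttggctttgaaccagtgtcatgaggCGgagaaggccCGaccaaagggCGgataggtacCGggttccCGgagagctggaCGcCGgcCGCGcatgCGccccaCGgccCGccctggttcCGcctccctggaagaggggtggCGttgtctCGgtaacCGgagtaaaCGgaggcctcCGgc
ADM5, chr19:49689344-49689593, plus strand: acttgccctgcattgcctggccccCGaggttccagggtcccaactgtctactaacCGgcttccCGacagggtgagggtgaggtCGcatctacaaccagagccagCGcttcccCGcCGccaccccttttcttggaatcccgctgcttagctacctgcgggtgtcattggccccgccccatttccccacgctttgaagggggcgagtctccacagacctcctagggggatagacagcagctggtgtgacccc
KIF11, chr10:92592880-92593129, plus strand: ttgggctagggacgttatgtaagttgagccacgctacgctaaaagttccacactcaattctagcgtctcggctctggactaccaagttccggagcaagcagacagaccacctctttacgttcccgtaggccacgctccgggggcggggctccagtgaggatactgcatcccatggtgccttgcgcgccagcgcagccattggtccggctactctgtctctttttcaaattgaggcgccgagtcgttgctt
STK16, chr2:219245229-219245478, plus strand: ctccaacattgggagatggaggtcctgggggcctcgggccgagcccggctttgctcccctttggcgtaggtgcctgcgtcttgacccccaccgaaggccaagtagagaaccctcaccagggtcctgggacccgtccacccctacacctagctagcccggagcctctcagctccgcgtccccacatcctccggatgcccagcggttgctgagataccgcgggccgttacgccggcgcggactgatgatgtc

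In HENMT1, the methyltransferase that modifies the ends of piRNAs, all 19 CpGs of the printed stretch were measured, and they ranged from 61.1 to 100 and from 62.8 to 100%. ZNF432, a zinc finger gene, held 22 CpGs at 88.9 to 100 and at 91.4 to 100%. CFAP44, a gene of the sperm and ciliary axoneme, held 23 CpGs at 83.3 to 100% and 89.5 to 100%. These 3 stretches were methylated at each measured CpG. In ADM5, an adrenomedullin-like gene, 7 of 12 CpGs were at 50% or more in both libraries and 5 were not, and the capitals stand in the part farther from the start. KIF11, a mitotic kinesin, and STK16, a serine/threonine kinase, have no capitals: their 18 and 19 CpGs reached at most 5.81 and 7.14% in the control and 4.04 and 3.88% in the Mdivi-1 library. KIF11, STK16 and also ADM5 are members through CpGs that lie farther upstream than the printed stretch. In ADM5 these are 10 CpGs at 81.1 and 90.4%, from -1460 to -1326 bp relative to the start.

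The 698 members held 16874 different CpGs, 5 to 142 per promoter with a median of 19.5, over a median span of 227.5 bp. Their mean level ran from 80.03 to 98.96% with a median of 92.3%, and 441 were at 90% or more and 133 at 95% or more. The members' CpGs had a mean coverage of 31.9 and 38.4 reads. Most of the members' CpGs were high, in part because the rule required it: 90.5% were at 80% or more and 2.20% were under 50%. The median standard deviation between a member's CpGs was 5.94 points, and 16.7 points in members at 80 to 85%. In 297 members every CpG reached 80%, and in 156 at least 1 CpG was under 50%. Some entries are not independent: 80 members shared CpGs with another member, leaving 686 distinct sets, and 11 spanned more than 2 kb or more than 1 island because a gene's start sites were joined.

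**Figure D1:**
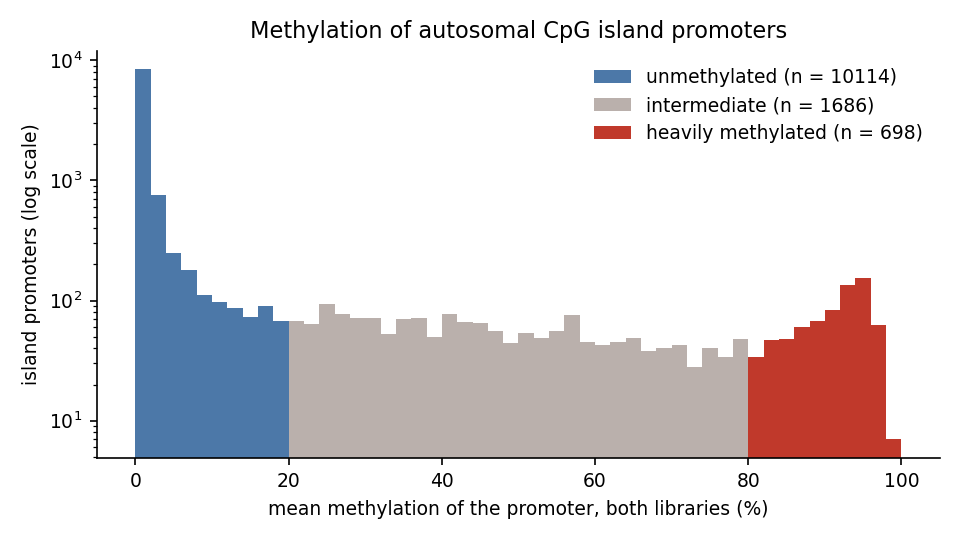
Number of autosomal CpG island promoters (log scale) by mean methylation over both libraries, in bins of width 2 percentage points, coloured by class. Most promoters sit near 0, and a second rise stands at 90% or more, where 441 of the 698 members lie.

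Among protein-coding members, ACTG1, which encodes cytoplasmic gamma-actin, had the most CpGs (chromosome 17, 79480206 to 79481597, hg19), 111 at 94.4 and 94.0%. NKX6-2, a homeobox gene of the neural tube and oligodendrocytes (chromosome 10, 134599824 to 134601650), had 106 CpGs at 88.7 and 90.04%. RTKN (chromosome 2, 74667843 to 74669403), had 102 CpGs at 88.1 and 87.0%. Levels of these promoters were close in the libraries, and their counting errors, taking CpGs as independent, were 0.637, 0.759 and 0.658 points. WRAP73, a centriolar satellite gene, had 100 CpGs at 82.1 and 84.2%, and TP73, the p53-family gene whose range overlaps that of WRAP73 on chromosome 1, had 98 CpGs at 94.1 and 95.9%. TP73 joins 2 islands over 40025 bp, and both genes are among the members that share CpGs. The rest of the TP73 islands was at 49.4 and 50.6% over 55 CpGs. LTB4R, a leukotriene receptor, had 93 CpGs at 95.6 and 95.7%. Not all of these promoters were evenly methylated. By the mean of both libraries, 13 CpGs of WRAP73, 7 of RTKN and 6 of NKX6-2 were under 50%, with lowest values of 0, 0 and 4.16%. In ACTG1, TP73 and LTB4R 0 CpGs were under 50%.

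The highest levels among protein-coding members with at least 20 CpGs were those of TRIML2 (95.6 and 96.7%), ADAM32 (95.8 and 96.5%), ARL9 (95.8 and 96.4%), ADAD1 (95.97 and 95.98%), CFAP44 (95.2 and 96.8%) and the protease gene PRSS27 (96.5 and 95.2%). ADAD1 and ADAM32 are genes of male germ cells. In each of these 6, the least methylated CpG was at 86.9% or more. At the threshold, SPHKAP was at 77.1 and 82.9%, CRYBA2 at 79.5 and 81.0% and DMC1 at 82.9 and 77.5%, all just inside. SLC6A5 (80.4 and 79.1%), EML1 (80.4 and 79.5%) and SYT15 (78.6 and 81.3%) lay just outside. Both libraries were at 80% or more in 672 of the 698 members.

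Where the methylation sat relative to the start of transcription was examined next. A RefSeq promoter sequence was found for 441 members, and 252 of these could be paired with the table by at least 10 CpGs of matching spacing. The window from 250 bases before to 50 after the start was at 80% or more in 206 of them (81.7%), at 20 to 80% in 26 and under 20% in 20 (7.94%). In part this repeats the rule, since many of the members' CpGs lie in the window. Of 517 paired intermediate promoters, 7.54% had a start window at 80% or more, and of 5082 paired unmethylated promoters 98.9% had one under 20%.

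The 20 members with an unmethylated start window were mostly protein coding, 17 of 20. They include PTBP1, a splicing regulator, SDHAF1, an assembly factor of respiratory complex II, KAT2A, a histone acetyltransferase, GRWD1, a ribosome assembly gene, ORAI3, a calcium channel, and SIVA1, an apoptosis gene, all named after their values were seen. The median position of their member CpGs was -1486.5 bp from the start, against -103.5 bp in the 206 with a methylated one. This contrast largely follows from the split, since highly methylated member CpGs cannot fill a window under 20%. All member CpGs lay upstream of the start in 19 of the 20 and in 166 of the 206. An upstream position is not particular to members: the median was -118.5 bp in paired members, -154 bp in intermediate and -128 bp in unmethylated promoters. In KIF11 (chromosome 10, 94351361 to 94351615, hg19) the 34 member CpGs were at 90.8 and 93.9%, at a median of -1391 bp. Its start window was at 1.21 and 1.51% over 23 CpGs. In STK16 (chromosome 2, 220108212 to 220108348) the 11 member CpGs were at 90.3 and 92.8%, at a median of -1894 bp, and the start window was at 1.39 and 1.25%. The printed KIF11 and STK16 stretches show the same in letters. The member CpGs of KAT2A (chromosome 17, 40274525 to 40275360), 64 at 93.7 and 94.1%, begin at the same position as those of HSPB9, a testis heat shock gene that is itself a member. In BCAT1 several start sites were joined over 46473 bp, and its start window was at 2.01 and 2.91%.

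**Figure D2:**
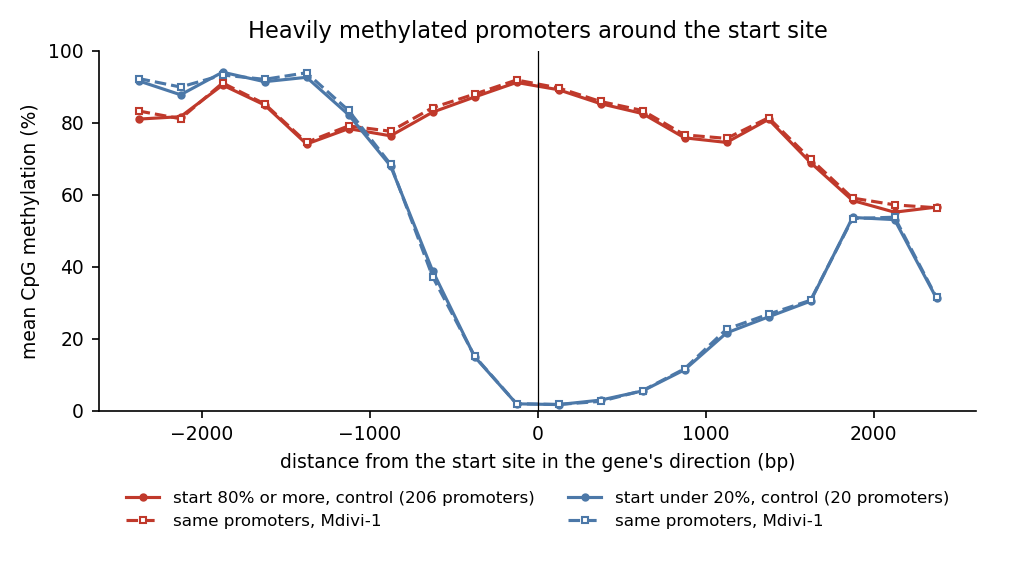
Mean CpG methylation in bins of 250 bp by distance from the paired start site, for the 206 members with a start window at 80% or more and the 20 under 20%, with the control as solid and Mdivi-1 as dashed lines. In the bin just before the start the control was at 91.2% in the first group and at 1.92% in the other, and the lines of the 2 libraries lie close together.

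The surroundings of the members were then read. The rest of the same island, outside the gene's own promoter, was measured over at least 5 further CpGs for 474 members. It had a median of 90.8%, with 343 members (72.4%) at 80% or more, but it can hold CpGs of another gene's promoter, members among them. Island CpGs in no gene's promoter were measured for 412 members and had a median of 91.3%, with 302 members (73.3%) at 80% or more. The same quantity was 38.9% for intermediate and 1.24% for unmethylated promoters. Promoter CpGs in island shores, the flanks of an island, had a median of 83.1% for 531 members, against 44.6 and 21.0%. Promoter CpGs outside islands, shores and shelves were not high: their median was 37.5% for 28 members, against 29.6% for intermediate and 67.2% for 449 unmethylated promoters. Gene bodies outside promoters were at 81.6% for 537 members, against 44.1 and 45.0%. Island CpGs inside the gene were not excluded from the body, so this value partly repeats the rest of the island. These are descriptions of neighbouring CpGs of the same libraries, and no test was made.

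**Figure D3:**
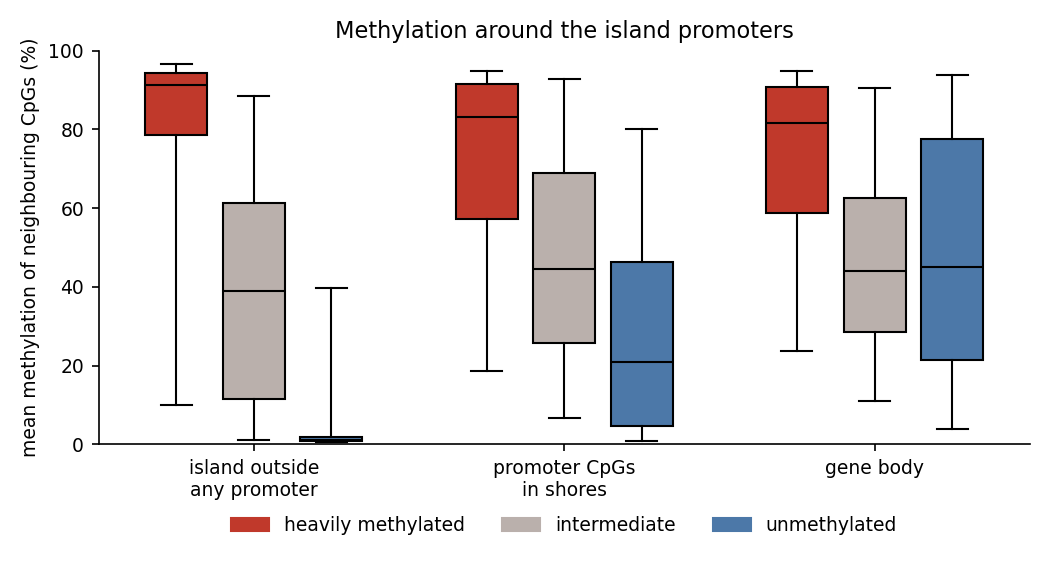
Mean methylation of neighbouring CpGs (%; island CpGs in no gene's promoter, the promoter's CpGs in shores, and the gene body outside promoters) by class of island promoter, over promoters with at least 5 such CpGs. Boxes give quartiles and median and whiskers the 5th and 95th percentiles. The members' medians are 91.3, 83.1 and 81.6%. Gene bodies can include island CpGs in no promoter.

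In 38 members, 30 of them protein coding, the rest of the island was under 20%. For 36 of them methylated and unmethylated CpGs stood in 1 island; the other 2, BCAT1 and LINC00461, join more than 1 island. A run of 5 CpGs at 80% or more and another at 20% or less could be found for 36 of these members. They were separated by 2 to 1155 bp with a median of 39 bp, and by less than 200 bp in 26. Outside the promoter the median over the 38 members, of which HRAS and LRRC56 share an island, was 2.12 and 1.81%. The members named next were chosen after their values were seen. In ACTG1 the 99 further CpGs of the island were at 14.7%, and the runs lay 27 bp apart. Its gene body outside the promoter was at 8.06% over 88 CpGs. TBX20, a T-box gene of heart development, had 51 promoter CpGs at 87.1 and 87.1% and 60 further CpGs at 1.24 and 1.07%. AGAP1, a GTPase-activating gene of endosomal traffic, had 28 at 87.2 and 87.3% and 72 at 1.38 and 1.31%. CD47, the "do not eat me" surface signal, had 59 at 87.0 and 87.9% and 5 at 1.67 and 1.18%. KDM2A, a histone demethylase that binds unmethylated CpG islands, had 30 at 95.1 and 94.7% and 7 at 1.46 and 1.09%, with the runs 7 bp apart. HRAS and LRRC56 share 67 promoter CpGs at 84.4 and 85.1%, beside 35 at 16.1 and 16.7%. In these examples both libraries were high at the CpGs assigned to the promoter and low in the remainder of the island. Member CpGs mostly lay upstream of the start where it could be paired, so the remainder can hold a gene's start.

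By gene type, members were uncommon among protein-coding genes, 430 of 10373 (4.15%). The share was 9.64% for long noncoding RNAs (105 of 1089), 19.03% for microRNAs (51 of 268), 15.2% for transcribed pseudogenes (24 of 158) and 33.6% for other pseudogenes (44 of 131). For a microRNA the promoter is the one assigned to its own symbol. Whether it lies inside another gene, or at the start of the primary transcript, was not examined. Types came from RefSeq by symbol, and 31 members had no match. The members' islands were shorter, with a median of 622.5 bp against 821 bp for unmethylated promoters, and had an observed to expected CpG ratio of 0.84 against 0.90. Their GC content was 66.8% against 65.5%. Exonic positions made up 13.4% of the members' CpGs and 6.19% of those of unmethylated promoters, and 5′ UTR positions 6.49% and 13.8%. By chromosome the share of members ran from 3.45% (chromosome 10) to 8.65% (chromosome 22).

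Of the 51 microRNA members, 47 had a mature sequence that could be shown. MicroRNAs pair with target messages mainly through the seed, bases 2 to 8, which is in capitals in the RefSeq sequences below. The 6 shown were chosen after their values were seen, as widely studied microRNAs and as the members that share a seed.
hsa-miR-181c-5p: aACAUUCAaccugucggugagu
hsa-miR-181d-5p: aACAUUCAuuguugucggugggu
hsa-miR-203a-3p: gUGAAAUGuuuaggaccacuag
hsa-miR-193a-3p: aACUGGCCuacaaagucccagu
hsa-miR-127-3p: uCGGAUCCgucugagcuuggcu
hsa-miR-24-3p: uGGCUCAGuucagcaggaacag

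Only 1 seed, that of miR-181c-5p and miR-181d-5p, occurred in more than 1 microRNA gene among these 47. The 2 genes also share their 14 promoter CpGs, at 86.6 and 88.0%. MIR203A, of an epithelial microRNA, was at 90.6 and 91.0% over 14 CpGs. MIR193A was at 92.1 and 92.7% over 19 CpGs, and MIR24-1, 1 of the genes that give miR-24-3p, at 92.6 and 93.5% over 13. MIR127, of the imprinted cluster on chromosome 14, was at 95.9 and 96.8% over 23 CpGs. The longest of the microRNA list were MIR1225 (91 CpGs at 95.2 and 94.6%), MIR3187 (73 CpGs at 93.8 and 95.4%), MIR219B (56 CpGs at 96.0 and 95.7%) and the host gene MIR34AHG (67 CpGs at 82.8 and 83.7%). Over the 51 microRNA members 28 were higher and 23 lower in the Mdivi-1 library.

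Gene lists were read as counts beside the 5.58% of all island promoters that are members. Germline and meiosis genes had the highest share, 22 of 46 (47.8%), with 17 intermediate and 7 unmethylated. They include genes of the piRNA pathway, which silences transposons in germ cells: HENMT1, PNLDC1, PIWIL2, TDRD1, TDRD9, TDRD12 and ASZ1. BOLL, an RNA-binding gene of spermatogenesis, had 90 CpGs at 93.6 and 94.2%. HENMT1 (chromosome 1, 109203716 to 109204378, hg19) had 76 at 92.4 and 92.9%. SYCE1 and SYCP3, of the synaptonemal complex, had 60 CpGs at 84.8 and 85.3% and 17 CpGs at 97.2 and 95.9%. Of the 16 germline members with a measured rest of the island, 14 were at 80% or more there, CpGs of other genes' promoters included. Among autosomal cancer-testis antigens 4 of 29 (13.8%) were members: CTNNA2, HSPB9, SPAG6 and TPTE, and TPTE is in both lists.

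Epithelial genes held 7 members of 22 (31.8%). ESRP2, an epithelial splicing regulator, was at 93.1 and 94.3% over 72 CpGs, SPINT1, a protease inhibitor, at 80.6 and 80.2% over 41, and CLDN7, a tight junction gene, at 88.1 and 88.9% over 14. MARVELD2, KRT7 and KRT19 were members as well, and the last 2 are also among the 3 keratin members of 8. Of the adrenergic neuroblastoma genes 2 of 20 were members, EYA1 (87.7 and 95.1% over 16 CpGs) and ELAVL4 (88.6 and 93.4% over 8). Their promoter CpGs in shores were at 76.4% (5 CpGs) and 92.2% (7 CpGs). Those outside islands, shores and shelves were low, at 3.11% over 21 CpGs in EYA1 and 8.38% over 42 in ELAVL4. Of the regulators in the adrenergic list, GATA2, GATA3, ISL1 and MYCN were each under 2% in both libraries, while INSM1 was intermediate, at 78.7 and 77.98% over 85 CpGs. Of 22 marker genes of this line and of other cell types, 11 had a measured island promoter. Of the epithelial markers CDH1 was at 70.8 and 70.4% and ESRP1 at 56.0 and 56.8%, and of the mesenchymal ones TWIST1 was at 8.08 and 8.76% and FOSL1 at 6.05 and 5.40%. No blood marker was measured.

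Imprinted genes held 8 members of 38 (21.1%), with 20 intermediate. MEST, an imprinted hydrolase gene, was at 92.9 and 95.7% over 84 CpGs, and MESTIT1, its antisense neighbour with an overlapping range, at 93.6 and 94.0% over 100. MEST joined 2 islands over 5809 bp. NNAT was at 92.1 and 93.7% over 58 CpGs, and L3MBTL1 at 85.3 and 88.4% over 35. The other members were MEG3, GNAS-AS1, KCNQ1 and ZNF597. Of the classic hypermethylated tumour suppressors 5 of 53 (9.43%) were members: TP73 (2 joined islands), CYP26C1, ZMYND10, GATA4 and DLEC1. A further 23 of the 53 were intermediate. CYP26C1, a retinoic acid hydroxylase, was at 95.8 and 95.3% over 42 CpGs, and ZMYND10 at 93.6 and 94.4% over 17.

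Among developmental regulators, the SOX and T-box list had 3 members of 19, SOX30, a spermatogenesis factor (85.8 and 86.9%), TBX4 (84.8 and 88.0%) and TBX20. SOX30 and TBX4 each joined 2 islands, over 19609 and 4707 bp. The forkhead list had 1 of 28, FOXR1 (96.1 and 95.3%), and the homeobox list outside the HOX clusters 1 of 61, NKX6-2. Zinc finger genes of chromosome 19 held 8 of 156 (5.13%), near the share of all promoters. ZNF432 was at 95.7 and 95.9% over 32 CpGs, ZNF544 at 88.2 and 87.7% over 38, ZNF135 at 92.9 and 93.9% over 25 and ZNF296 at 87.6 and 88.8% over 24. Single members stood in the lists of protocadherins (PCDHGB6, of 4), mesenchymal state genes (WWTR1, of 15), blood genes (TLR2, of 10), chemokines (CCL28, of 9) and respiratory chain subunits (COX7A1, a muscle-type subunit, 95.8 and 95.6%, of 62). Potassium channels held KCNQ1 and KCNMB3 (of 47) and the antioxidant and detoxification list CYP26C1 and CYP27A1 (of 51).

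No member was found among 15 HOX genes, 21 Wnt ligands and antagonists, 13 death receptor and caspase genes, 62 ribosomal protein genes, 16 antigen presentation genes, 20 glutamate and GABA receptors, 32 collagen, laminin and integrin genes, 11 genes of the DNA methylation machinery or the only measured olfactory receptor. All 33 measured genes of mitochondrial fission, fusion and mitophagy, which include the proteins of the process that Mdivi-1 is applied against, were unmethylated. HOX genes were instead mostly intermediate, 10 of 15.

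**Figure D4:**
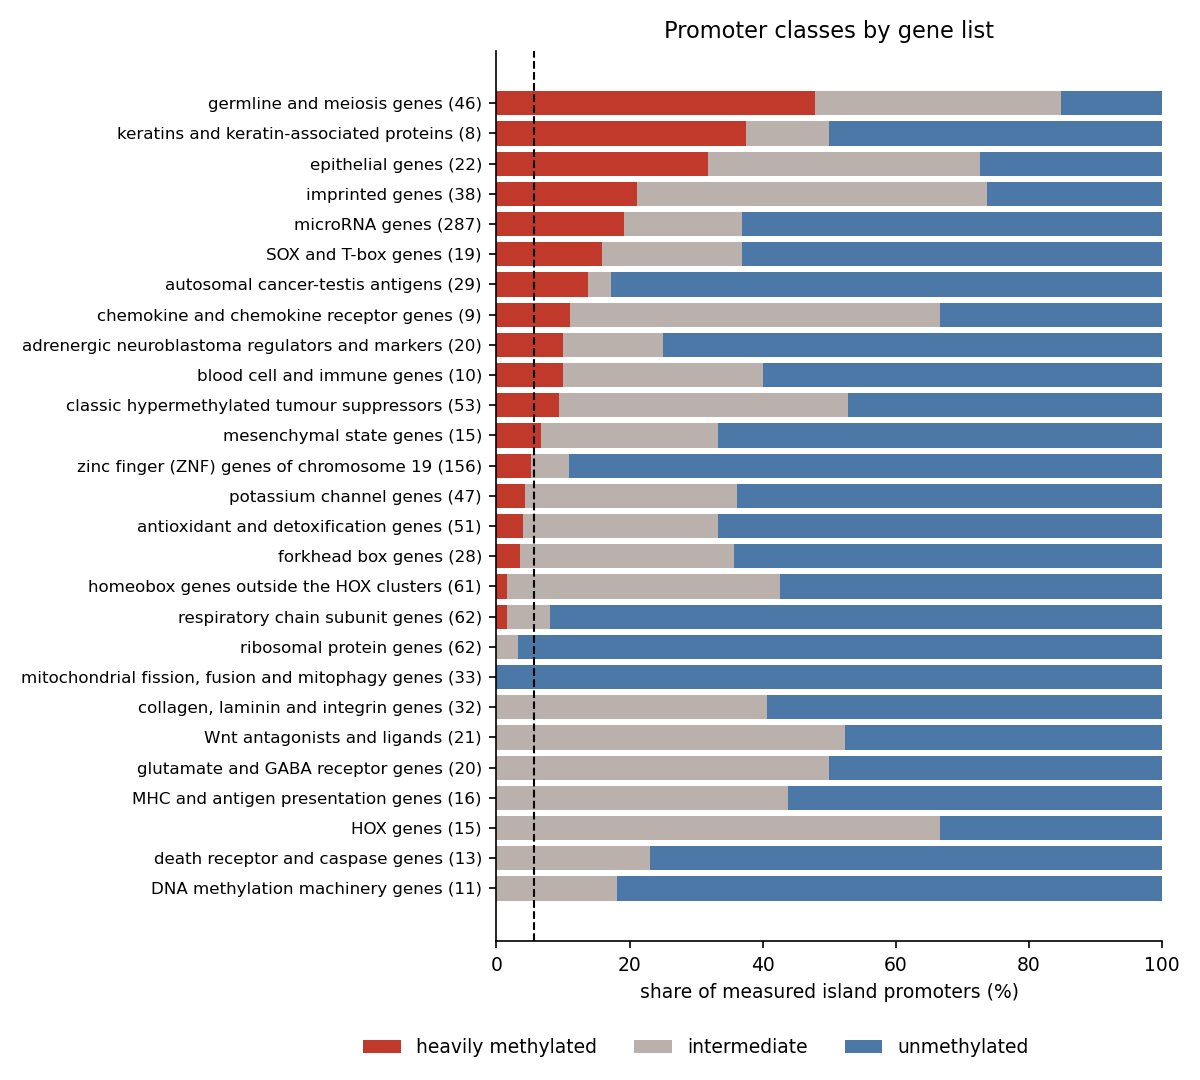
Share of measured island promoters that were heavily methylated, intermediate or unmethylated in each gene list with at least 8 measured promoters (number in parentheses). The dashed line marks the 5.58% of all island promoters that are members; germline genes reach 47.8%.

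The libraries were then compared, Mdivi-1 minus control, in percentage points. The median difference of the 698 members was 0.520 points, with quartiles of -1.01 and 2.08, and 415 were higher and 283 lower. It was 0.450 for intermediate, 0.0347 for unmethylated and 0.0561 for all 12498 promoters. Members at 80 to 85% differed by a median of 0.593, those at 85 to 90% by 0.844, those at 90 to 95% by 0.621 and those at 95% or more by -0.0159 points. The median counting error of a member was 1.55 points when its CpGs count as independent and 7.06 when the same reads cover all of them. Beyond 2 errors lay 127 members (18.2%) with the first, against 1217 of all 12498 island promoters (9.74%), and 0 members with the second, against 1 promoter (0.008%). With the first error, 389 of the 1686 intermediate and 701 of the 10114 unmethylated promoters lay beyond 2 errors.

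A promoter counted as different when its mean difference was at least 10 points with at least 80% of CpGs in that direction. Of the members 1 was higher and 1 lower, against 0.248% and 0.232% of all island promoters. The rule leaves members less room above: 441 of the 698 were at 90% or more, where a gain of 10 points is hardly possible. Of the 1686 intermediate promoters 30 were higher and 26 lower, and of the 10114 unmethylated 0 and 2. ECT2L (chromosome 6, 139116948 to 139117247, hg19) was at 87.9 and 98.0%, higher at 13 of 13 CpGs. The 10.2 points between them have counting errors of 2.17 (independent CpGs) and 7.10 points (shared reads), and were 9.39 with pooled reads and 8.69 at a minimum of 20 reads. With the deposited fractions it was 9.91, and the pseudogene SCDP1 (10.1 points) met the rule in its place. RIN3, a Rab5 exchange factor (chromosome 14, 92979772 to 92979798), was at 94.5 and 82.6%, lower at 7 of 7 CpGs with a mean coverage of 10.6 and 15.6 reads. Its difference of -11.9 points has errors of 4.92 and 12.7 points, and too few of its CpGs had 20 reads to give a value there.

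With 5 points in place of 10, 14 members (2.01%) were higher and 9 (1.29%) lower, against 0.72% and 0.52% of all island promoters, most of which are unmethylated. Of the 1686 intermediate promoters 70 were higher and 50 lower, and of the 10114 unmethylated 6 and 6. All 23 members that met the 5 point rule had fewer than 20 CpGs. None of the 231 members with 20 to 39 CpGs, or of the 118 with 40 or more, met it.

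Among protein-coding members with at least 10 CpGs, AIFM2, the ferroptosis suppressor FSP1, had the largest gain, 82.1 and 92.8% over 18 CpGs, 13 of them higher. ADM5 was at 81.1 and 90.4% (6 of 10 CpGs higher) and SH2D4A at 80.3 and 88.1% (9 of 12). RBMXL2, a testis RNA-binding gene, was at 82.7 and 90.4% (10 of 11), and AK3, a mitochondrial adenylate kinase, at 90.3 and 98.0% (7 of 10). On the lower side, SLC12A5, the neuronal chloride exporter KCC2, was at 91.3 and 83.8% with 11 of 12 CpGs lower. SALL3 was at 88.3 and 81.5% (16 of 23 CpGs lower), FSTL1 at 94.1 and 87.3% (13 of 15) and CCL28 at 86.8 and 80.1% (10 of 14). TIMP4 was at 94.6 and 88.3% (8 of 10) and TMEM61 at 84.7 and 79.3% (8 of 13). Counting errors of these gains and losses were 2.10 to 4.05 points with independent CpGs. With shared reads the error exceeded the difference in all of them except AIFM2 (10.3 points) and AK3 (7.33 points). Pooling reads moved the FSTL1 difference from -6.78 to -4.52 points, and a minimum of 20 reads moved that of CCL28 from -6.68 to -2.36. Each of these differences is a description chosen for its size. In AK3 and FSTL1 the rest of the island was unmethylated, at 1.36 and 1.06% over 57 CpGs and at 0.764 and 1.79% over 28.

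Two-sided Fisher exact tests of single CpGs were run over 2523693 positions with Benjamini-Hochberg adjustment, which compare the reads of 2 libraries and not the conditions. A CpG was called at an adjusted p under 0.05 and a difference of at least 20 points, which 0.000396% of all CpGs met as higher and 0.000238% as lower. Of 16781 CpGs tested in members, 0 were called. Because 90.5% of the members' CpGs were at 80% or more, most had little room for a gain of 20 points. The shares over all CpGs are therefore not a like comparison for gains. At an unadjusted p under 0.05 there were 291 (1.73%), against 2.02% of all CpGs tested.

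**Figure D5:**
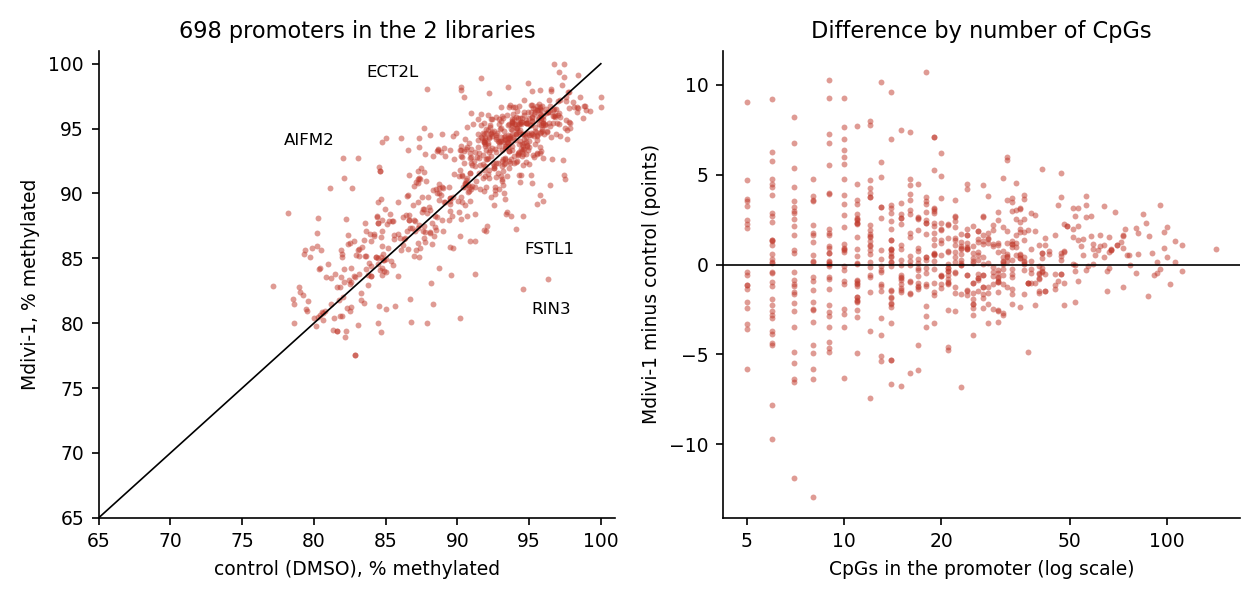
Left, mean methylation of each of the 698 members in the control (x) and Mdivi-1 (y) library, with the line of equality. Right, the difference in percentage points by number of CpGs (log scale); differences of 5 points or more stand mainly at few CpGs, and the range over all members is -12.9 to 10.7.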

How the data were processed

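Per the labels' protocols, DNA of the DMSO and Mdivi-1 cultures was enriched with a SureSelectXT methyl-capture kit and sequenced on a NovaSeq instrument; the submitters' processing notes name BSMAP and hg19. The authors deposited, for 2773807 positions, the methylated fraction and the coverage of each library, taken here as estimated counts because some coverages are not whole. The control fractions were whole reads at the deposited coverage for 33.3% of positions (tolerance 1e-06); whole reads were recovered after multiplying the coverage by 1.23, a ratio read from the values. In all, 10795 positions (0.389%) were left out of differences and tests, 10751 for fractional coverage.

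Members and gene lists were chosen with earlier results of these data known. Levels are means of deposited fractions, and differences are means over CpGs of recovered reads. Named are the members by number of CpGs, level, gain and loss, nearness to the threshold, gene list (up to 4) and size rule; others are said to be chosen after their values were seen. No called CpG added a name. A few list and marker genes are not reported here. Start sites were paired by CpG spacing (at least 10 CpGs and 2 times the next best offset). Of 12498 promoters, 12239 symbols matched RefSeq, 299 by synonym. Alternatives changed coverage, CpG number, level, read pooling and recovery. Intervals and errors cover counting only, since reads may share a PCR origin. Scripts were tested on simulated data. Analyses ran in Python 3.11.15 with pandas 2.3.3 and NumPy 2.4.6 for tables, Numba 0.67.0 and SciPy 1.17.1 for tests, and Matplotlib 3.10.9 for plots.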

Additional observations from a re-analysis of the deposited data

How the results depend on the processing

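No paired analysis was possible because each group holds 1 library. The number of members stayed within 1.5 times of 698 for a minimum of 20 reads, 10 CpGs, thresholds of 75 and 85%, either library alone and runs of CpGs with gaps of at most 2000 bp (568 to 801), and was 441 at a threshold of 90%. The median difference of the members was 0.424 to 0.603 points over its 7 alternatives, within 0.150 points of the 0.520 of the main setting. That limit comes from the counting error of a mean, with CpGs and members taken as independent, although 80 members share CpGs. Promoters past the size rule numbered 14 higher and 9 lower at 5 points, 0 and 0 at 20 reads, 0 higher with pooled reads and 0 lower with at least 10 CpGs, in place of 1 and 1; the deposited fractions gave 1 and 1, with SCDP1 in place of ECT2L. No CpG in members was called under any setting run. Members per list moved by over 1.5 times as follows. At a minimum of 20 reads the counts were 1 for HOX, ribosomal protein, adrenergic, keratin, glutamate and GABA receptor, and potassium channel genes, 2 for Wnt and for homeobox genes and 4 for epithelial genes. At a threshold of 75% they were 1 for death receptor, ribosomal protein and glutamate and GABA receptor genes, and 2 for Wnt, homeobox and respiratory chain genes. At 85% the count was 0 for chemokine genes. Of 70 named promoters, the difference changed sign in 9 with pooled reads and in 2 with deposited fractions, and in 11 of the 56 measured at 20 reads. Alternatives added after seeing the data left 34 members with the rest of the island under 20% (10 further CpGs) or 31 (further CpGs in no gene's promoter) and 20 with a start window under 20% (15 paired CpGs).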
